A study of Mus musculus with 3 samples.

Results

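The fibrillins and the proteins that bind their microfibrils were followed through the 3 libraries by 7 genes: Fbn1 and Fbn2 (fibrillins), Mfap2, Mfap4 and Mfap5 (microfibril-associated proteins), and Emilin1 and Emilin2 (elastin microfibril interfacers). They were chosen by symbol from the 32285 genes listed in every library, and each symbol had 1 row. The question they address is how the partners of the mutated Fbn1 are transcribed in the 3 main cell types of the ascending aorta, without and with losartan.

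Cells of the ascending aorta of male C57BL/6J mice at P45 were sequenced as 3 pooled droplet libraries, 1 from wild-type mice (WT), 1 from mice homozygous for the hypomorphic mgR allele of Fbn1 (mgR) and 1 from Fbn1mgR/mgR mice that drank 0.6 g/L losartan from P16 (mgR-LOS). The allele is constitutive, so every cell type of both mutant libraries carries it, and losartan blocks the angiotensin II type I receptor. Whether untreated mutants were given a vehicle is not stated in the labels. Each group was 1 pooled library, so no comparison has a replicate, no test was run, and the 95% intervals given cover counting error only.

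Fibrillins polymerize outside the cell into microfibrils, which scaffold elastin into the elastic lamellae of the aortic media and tether the latent complexes that hold TGF-β. Mfap2 and Mfap5 encode MAGP-1 and MAGP-2, small glycoproteins that bind fibrillin, while Mfap4 encodes a fibrinogen-related protein found on elastic fibres, and the EMILINs sit where elastin meets the microfibril. Mutations of human FBN1 cause Marfan syndrome, in which the ascending aorta widens and dissects.

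In GRCm38 and GENCODE M21, Fbn1 lies on chromosome 2 from 125300594 to 125507993 on the minus strand, with 65 exons in its principal transcript, as many as its paralog Fbn2. Mfap2 is on chromosome 4 (141010418 to 141015984), Mfap4 on chromosome 11 (61485431 to 61488900), Mfap5 on chromosome 6 (122505845 to 122529290) and Emilin1 on chromosome 5 (30913402 to 30921277), all on the plus strand, whereas Emilin2 is on chromosome 17 (71252172 to 71311978) on the minus strand. No annotated gene on the same strand overlapped any of the 7. A gene on the opposite strand overlapped Fbn1, Fbn2, Mfap4 and Emilin2, and for Mfap4 it was the 3′ end of Mapk7. The counts come from the 3′ ends of transcripts and therefore do not tell a normal from an altered Fbn1 transcript.

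RefSeq promoter sequences (GRCm38.p6) were at hand for 4 of the 7 genes, Fbn1, Mfap2, Emilin1 and Emilin2. The 250 bases before the Fbn1 and Emilin1 starts lie wholly in annotated exons and are not printed. The stretches shown belong to Emilin2, the member with the highest mgR to WT ratio in fibroblasts, and to Mfap2, so that a start of each can be read side by side. The ratios of Mfap2 in the whole fibroblast class stayed within 1.5-fold in every comparison. For Mfap2 the stretch is chr4:141010174-141010417 on the plus strand, which ends at the base before the annotated gene. For Emilin2 it is chr17:71311012-71311261 on the minus strand, before a RefSeq start that lies inside the gene as GENCODE M21 draws it, where that annotation has no exon. The bases checked after this start were found in no GENCODE transcript of the gene. Another Emilin2 start, whose following bases are in such a transcript, has 72 of its 250 bases outside exons and is not printed. The printed stretch is therefore not that of the annotated Emilin2 start. Capitals mark matches to any of 4 motifs, each searched on both strands. The GC box is read as GGGCGG, which Sp1 family factors bind. The CCAAT box is read by the letters of its name, and the TATA box as TATAAA. The short element bound by Smad proteins is read as CAGAC, and no searched motifs overlapped in the stretches shown.
Emilin2: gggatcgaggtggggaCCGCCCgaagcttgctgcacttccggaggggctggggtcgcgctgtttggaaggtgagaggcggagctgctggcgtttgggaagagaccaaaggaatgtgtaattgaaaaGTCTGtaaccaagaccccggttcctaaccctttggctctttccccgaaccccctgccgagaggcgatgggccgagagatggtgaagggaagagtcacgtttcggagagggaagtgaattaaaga
Mfap2: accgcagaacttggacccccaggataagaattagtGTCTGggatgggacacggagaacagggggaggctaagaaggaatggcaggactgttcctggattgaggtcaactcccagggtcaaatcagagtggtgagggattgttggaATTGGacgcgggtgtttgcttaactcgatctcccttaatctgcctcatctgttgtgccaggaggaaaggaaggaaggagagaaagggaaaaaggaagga
The 250 bases of Emilin2 held 1 GC box and 1 Smad element, which 32.7% and 42.2% of the 32851 promoters of the same table held in the same window. The 244 bases of Mfap2 held 1 CCAAT box and 1 Smad element, against 33.4% and 41.4% of all promoters in that window. The table has another Mfap2 start, for which 154 bases lie outside exons (not printed), with 68.2% G and C, 1 GC box and neither a CCAAT box nor a Smad element, so the motifs differ between starts of 1 gene. Neither stretch held a TATA box or a CArG box, the element bound by serum response factor. The Emilin2 stretch had 57.6% G and C and the Mfap2 stretch 51.2%, with medians of 52.4% and 52.0% over all promoters. A match to these letters is a description of the sequence and not a binding site.

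Barcodes were gated on 8 marker genes for each class, none of them a member, and the classes were checked on their markers. SMC (Acta2, Myh11 and other contractile genes) numbered 3675, 3105 and 7998 barcodes in WT, mgR and mgR-LOS, fibroblasts (Pdgfra, Dcn, Col1a1) 1288, 2294 and 2958, and EC (Pecam1, Cdh5, Cldn5) 109, 212 and 167. Such a class is a range cut from a panel score, and 34, 297 and 212 SMC barcodes and 100, 469 and 368 fibroblast barcodes lay near the limit of their own panel (from 0.8 of it to as far above on a ratio scale). The median fibroblast panel was 32.9, 36.8 and 28.8 UMIs per 10000 in SMC and 3.35, 2.99 and 6.71 in EC, and the median SMC panel in fibroblasts was 10.4, 12.3 and 14.2. The median SMC barcode held 14356, 15142 and 8537 UMIs, so mgR-LOS was the shallower library. An immune class of 115, 1379 and 701 barcodes, gated on 13 markers, served as a measure of free RNA for members other than Emilin1 and Emilin2. Emilin1 was 2.92 CPM in the immune class of WT and 16.2 (13.95 to 18.7) in that of mgR. The 92 lymphocyte barcodes within the mgR immune class held 1.90 CPM of it (0.0481 to 10.6, 1 UMI). Whether immune cells carry Emilin1 was not tested. Levels are UMIs of the gene per 1000000 UMIs of the class (CPM). They count 3′ ends and are not divided by length, so levels of different genes are not compared.

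Fbn1 itself was lower in both mutant libraries in all 3 classes. In SMC its level was 250.3 CPM in WT (95% exact Poisson interval 246.1 to 254.7, 13023 UMIs), 78.2 in mgR (75.7 to 80.8) and 70.1 in mgR-LOS (68.2 to 72.0). In fibroblasts it was 803 CPM in WT (789 to 818), 348 in mgR (341 to 355) and 285.5 in mgR-LOS (279 to 292). In EC it was 90.4 CPM (71.3 to 113), 39.8 (30.9 to 50.5) and 37.0 (27.0 to 49.5), resting on 77, 68 and 45 UMIs. The WT level stood above both mutant levels in each class with no overlap of intervals, and the immune class held 3.48 to 6.80 CPM. Ordered by level, the 3 fibroblast values came first, followed by WT SMC, and the WT EC and mgR SMC values, next to each other in that order, had overlapping intervals, as did the lowest pair, mgR and mgR-LOS EC.

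The mgR to WT ratio of Fbn1 was 0.3125 in SMC (0.301 to 0.324), 0.433 in fibroblasts (0.422 to 0.445) and 0.441 in EC (0.313 to 0.619). The SMC ratio was 0.721 times the fibroblast ratio, with an interval of 0.689 to 0.754, so the ratio was lower in SMC beyond counting error. The fibroblast ratio was 0.983 times the EC ratio, with an interval of 0.709 to 1.36 that includes 1. When every SMC barcode was thinned to 1000 UMIs, with 6, 1 and 4 shallower barcodes left out, 20.55% of WT barcodes held an Fbn1 UMI against 7.41% in mgR and 6.08% in mgR-LOS. Without thinning the shares were 91.1%, 63.45% and 42.0%, the last from the shallower library. In the immune class 2.61%, 0.290% and 1.14% of thinned barcodes held one, at unthinned median depths of 8437, 7881 and 6279 UMIs.

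Fbn2, the fibrillin best known from development, was nearly absent from adult SMC. The SMC class held 0 Fbn2 UMIs in WT, an exact interval that reaches 0.0709 CPM, 10 in mgR and 21 in mgR-LOS. In fibroblasts its level was 8.89 CPM in WT (129 UMIs), 12.6 in mgR (367 UMIs) and 6.67 in mgR-LOS (164 UMIs), all below the 20 CPM required for a call. The mgR to WT ratio of 1.42 (1.16 to 1.75) did not reach 1.5-fold, and the mgR-LOS to mgR ratio was 0.529 (0.437 to 0.637). Fbn2 made up 1.095% of the UMIs of both fibrillins in WT fibroblasts (0.915 to 1.30%), 3.50% in mgR (3.16 to 3.87%) and 2.28% in mgR-LOS (1.95 to 2.66%). The Fbn1 count beside it was 11647, 10118 and 7016 UMIs, from classes of 14503971, 29070891 and 24576319 UMIs. As a level that is 803, 348 and 285.5 CPM. The share thus follows the lower level of the mutated Fbn1 as well as Fbn2 itself. In mgR-LOS it was higher than in WT although the Fbn2 level was lower (6.67 against 8.89 CPM). In EC there were 10, 1 and 13 Fbn2 UMIs, and from its highest level, in mgR fibroblasts, to the fifth, in mgR-LOS fibroblasts, each interval overlapped the next.

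Mfap5, which encodes MAGP-2, moved differently in SMC and fibroblasts. In SMC it was 729 CPM in WT (722 to 737), 255.5 in mgR (251 to 260.1) and 252.5 in mgR-LOS (249 to 256), and the mutant values were near each other and far below WT. In fibroblasts it was 1631 CPM in WT (1610 to 1652), 1953 in mgR (1937 to 1969) and 1664 in mgR-LOS (1648 to 1681), so that by this measure mgR was the highest library, and the intervals of WT and mgR-LOS overlapped. The share of fibroblasts with an Mfap5 UMI had another order, 63.35% in WT (60.7 to 66.0%), 56.2% in mgR (54.2 to 58.3%) and 54.55% in mgR-LOS (52.7 to 56.35%) after thinning to 1000 UMIs, and 86.7%, 83.1% and 81.6% without thinning. The mgR to WT ratio was 0.350 in SMC (0.343 to 0.358) and 1.20 in fibroblasts (1.18 to 1.22), and the SMC ratio was 0.293 times the fibroblast ratio (0.285 to 0.300). The fibroblast ratio stayed within 1.5-fold and turned to 0.954 when barcodes had at most 4000 genes. In the order of levels the fibroblast values were followed by WT SMC and WT EC, and then came 2 pairs whose intervals overlapped, mgR and mgR-LOS SMC and, below them, mgR and mgR-LOS EC.

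Most Mfap5 transcripts lay in SMC in WT and in fibroblasts in the mutant libraries. Of all Mfap5 UMIs in filtered barcodes, 60.3% fell in SMC and 37.6% in fibroblasts in WT, 16.6% and 77.6% in mgR, and 28.8% and 64.8% in mgR-LOS. Over all filtered barcodes the level was 899.8 CPM in WT, 733 in mgR and 568 in mgR-LOS. The same shares were 51.5% and 46.1% for Fbn1 in WT and 24.7% and 67.5% in mgR. These shares also follow the number of barcodes per class, since SMC were 68.55% of filtered barcodes in WT, 38.45% in mgR and 62.9% in mgR-LOS. The digestion, the pool and the genotype cannot be told apart as sources of that number.

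Mfap2, which encodes MAGP-1, stayed within 1.5-fold of its WT level in SMC and fibroblasts. In SMC it was 19.8 CPM in WT (18.6 to 21.1), 16.1 in mgR (15.0 to 17.3) and 21.2 in mgR-LOS (20.2 to 22.3). In fibroblasts it was 179 CPM in WT (172 to 186), 125 in mgR (121 to 129) and 177 in mgR-LOS (172 to 182), so that WT and mgR-LOS overlapped and mgR was lowest. The fibroblast ratio of mgR to WT was 0.701 (0.6665 to 0.7375) and that of mgR-LOS to mgR 1.41 (1.35 to 1.47), both inside 1.5-fold. All EC values ranked between those of fibroblasts and SMC. Mfap2 and Mfap5 encode related proteins, and their SMC ratios of mgR to WT, 0.815 (0.741 to 0.896) and 0.350, had intervals that did not overlap. Mfap2 of SMC was below 20 CPM in both of these libraries, so its ratio could not be called.

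Mfap4 was lower in both mutant libraries in SMC and in fibroblasts. In SMC it was 1063 CPM in WT (1054 to 1072), 456 in mgR (450.0 to 462) and 306 in mgR-LOS (302 to 310). In fibroblasts it was 1639 CPM in WT (1619 to 1660), 796 in mgR (786 to 806) and 670.0 in mgR-LOS (660 to 680). The 3 libraries stood in the same order in both classes, WT above mgR above mgR-LOS, with no overlap, and WT SMC ranked above mgR fibroblasts. The mgR to WT ratio was 0.429 in SMC (0.422 to 0.436) and 0.486 in fibroblasts (0.477 to 0.494). In EC its 17.6, 13.5 and 9.04 CPM were at or below the immune class (18.2 to 26.2 CPM), which is read here as background, and no EC ratio is read from them.

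Emilin1, which anchors elastic fibres to cells and restrains TGF-β processing, was not lower where Fbn1 was. In SMC it was 100.4 CPM in WT (97.7 to 103), 107.9 in mgR (105.0 to 111) and 101.7 in mgR-LOS (99.4 to 104), a mgR to WT ratio of 1.075 (1.03 to 1.12). In fibroblasts it was 119 CPM in WT (113 to 125), 199 in mgR (194 to 204) and 139 in mgR-LOS (134 to 144), so mgR was 1.67-fold higher than WT (1.585 to 1.77) and mgR-LOS lay between. The SMC ratio was 0.6425 times the fibroblast ratio (0.601 to 0.686). In the order of levels, WT fibroblasts overlapped mgR EC, which overlapped mgR SMC, and from mgR-LOS SMC down to WT EC each interval overlapped the next.

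Emilin2 was found mainly in fibroblasts among the 3 classes and had the highest mgR to WT ratio of the 6 genes that could be called there. Its fibroblast level was 41.9 CPM in WT (38.7 to 45.4, 608 UMIs), 105 in mgR (102 to 109, 3060 UMIs) and 93.75 in mgR-LOS (89.96 to 97.7, 2304 UMIs). Both mutant libraries lay above WT, with mgR 2.51-fold (2.30 to 2.74) and mgR-LOS 2.24-fold higher (2.04 to 2.45). SMC held 0.115, 0.802 and 1.51 CPM from 6, 38 and 109 UMIs, and EC 0, 0 and 1 UMI. The immune class carried the transcript as well, at 60.25, 128 and 77.5 CPM, so it was no measure of free RNA here.

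**Figure D1:**
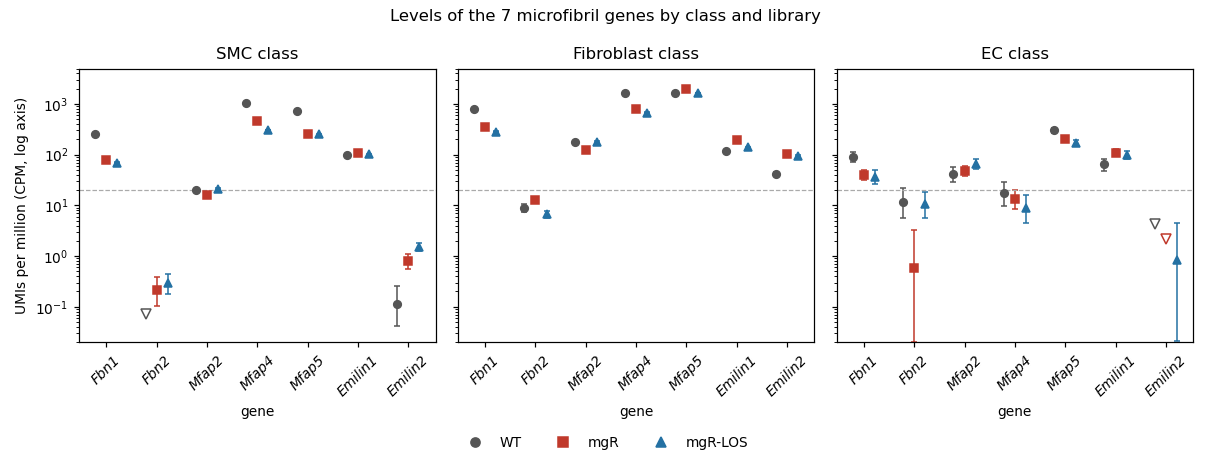
Levels of the 7 genes (CPM, log axis) in the SMC, fibroblast and EC classes of the WT, mgR and mgR-LOS libraries, with 95% exact Poisson intervals as bars, open triangles for the upper limit where no UMI was found, and the 20 CPM minimum as a dashed line. Fbn1, Mfap4 and Mfap5 of SMC sit below WT in both mutant libraries, whereas Emilin1 stays between 100.4 and 107.9 CPM there.

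With at least 20 CPM in either library and a 1.5-fold limit as the rule for a call, 14 of the 21 gene-by-class pairs could be called between mgR and WT, and 6 were lower and 3 higher. Fbn1 carries the mgR allele itself, so its lower calls, in all 3 classes, are those of the mutated gene and not of partners. In SMC, Fbn1, Mfap4 and Mfap5 were lower, 3 of the 4 genes with enough UMIs, where 3.59% of all 5483 genes were lower and 4.92% higher. In fibroblasts, Fbn1 and Mfap4 were lower and Emilin1 and Emilin2 higher, 4 of 6 genes, against 3.79% of 6123 genes lower and 6.71% higher. In EC, Fbn1 was lower and Emilin1 higher (1.71-fold, 1.26 to 2.35), 2 of 4 genes, against 6.6% of 6716 genes lower and 11.5% higher. The EC call of Emilin1 ended with the mean over barcodes (1.49), Mfap5 of EC, at 0.681, became a lower call under 5 alternatives (down to 0.628), and Mfap2 of EC, at 1.18, a higher call under 3 (up to 1.84). Among all genes of SMC with 20 CPM, 0.365% had a lower ratio than Fbn1, 0.492% than Mfap5 and 0.784% than Mfap4. The median ratio of the members with 20 CPM, Fbn1 among them, was 0.390 in SMC, 0.949 in fibroblasts and 0.932 in EC, beside 0.991, 1.00 and 1.05 over all genes.

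**Figure D2:**
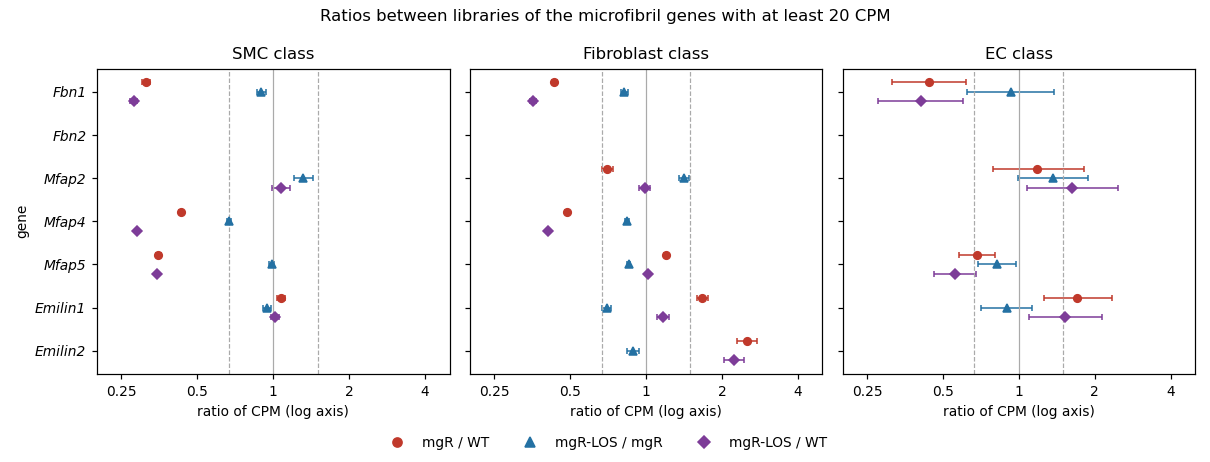
Ratios of CPM between libraries (log axis) for the 7 genes in each class, shown where either library had at least 20 CPM, with 95% exact conditional intervals as bars and dashed lines at 1.5-fold in either direction. In SMC the mgR to WT ratios of Fbn1, Mfap4 and Mfap5 lie between 0.3125 and 0.429, and the mgR-LOS to mgR ratios of the 5 genes shown lie inside the dashed lines.

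Losartan-treated mutants were compared with the mgR library, which also serves in the comparison above, so the values of both are only set side by side. No member with 20 CPM in either library passed 1.5-fold in any class taken whole (0 higher and 0 lower of 15 pairs). Within the subsets read below some members did. Pairs below 20 CPM could not be called. Among these, Fbn2 of fibroblasts stood at 0.529 (0.437 to 0.637), Emilin2 of SMC at 1.89 (1.29 to 2.81) and Fbn2 of EC at 18.2, from 13 against 1 UMI. Over all genes 3.76% were higher and 3.45% lower in SMC, 2.91% and 3.42% in fibroblasts, and 7.87% and 8.41% in EC. In SMC the mgR-LOS to mgR ratio was 0.896 for Fbn1 (0.858 to 0.935), 0.988 for Mfap5 (0.9655 to 1.01) and 0.943 for Emilin1 (0.9097 to 0.977). Mfap4 of SMC lay just inside the limit at 0.670 (0.658 to 0.683). It passed the limit under 5 alternatives (down to 0.603). In fibroblasts Fbn1 had 0.820 (0.7955 to 0.846), Mfap4 0.842 (0.825 to 0.859), Mfap5 0.852 (0.842 to 0.863), Emilin2 0.891 (0.843 to 0.940) and Emilin1 0.698 (0.669 to 0.7285), and Mfap2 alone was above 1, at 1.41. The EC ratios of Fbn1, Mfap2 and Emilin1 had intervals that included 1, and that of Mfap5 was 0.820 (0.687 to 0.978).

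Between mgR-LOS and WT, 7 of the 15 pairs with 20 CPM were lower and 3 higher. The lower calls of Fbn1 are again those of the mutated gene. Fbn1 was lower in SMC (0.280), fibroblasts (0.3555) and EC (0.409), Mfap4 in SMC (0.288) and fibroblasts (0.409), and Mfap5 in SMC (0.346) and EC (0.558). Emilin2 of fibroblasts was higher, as were Mfap2 (1.62, 1.08 to 2.48) and Emilin1 (1.53, 1.10 to 2.14) of EC. Both EC calls depended on the processing, since Mfap2 lost its call under 3 alternatives (range 1.08 to 2.50) and Emilin1 under 6 (1.09 to 2.16). Over all genes 3.04% were lower and 4.54% higher in SMC, 3.98% and 6.0% in fibroblasts, and 8.4% and 12.7% in EC. Mfap2, Mfap5 and Emilin1 of fibroblasts stood at 0.9885, 1.02 and 1.17 times WT.

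Fbn1 and Mfap5 were lower than in WT by over 1.5-fold in each of the 10 subsets of SMC examined, and Mfap4 in 9. The subsets are both sides of 5 splits of the same barcodes, so they overlap and are not independent. The share over all genes within them is not given. SMC were split 5 times, by whether a barcode had at least 5 UMIs per 10000, and at least 3, of Sost, Acan and Susd5, of Rbp4 and Wif1, of Tnnt2 and Tcap, of Vcam1 and Spp1, or of Rgs5, Kcnj8 and Abcc9. The share of SMC passing these gates differed between libraries. For Rbp4/Wif1 it was 33.1% of WT barcodes against 2.32% in mgR and 2.66% in mgR-LOS, and for Vcam1/Spp1 0.463% against 9.08% and 2.10%. Whether the kinds of cells or the levels of these marker genes differed was not tested. Over the 10 subsets the mgR to WT ratio ranged from 0.300 to 0.373 for Fbn1, from 0.341 to 0.566 for Mfap5 and from 0.317 to 0.707 for Mfap4. The highest of these 3 ranges came from the barcodes with Vcam1/Spp1, of which WT had 17. Within barcodes with Rbp4/Wif1, Mfap5 was 808 CPM in WT, 366 in mgR and 345 in mgR-LOS, and within those without it was 689 in WT and 253 in mgR. Emilin1 ranged from 1.02 to 1.77, with the highest value in barcodes with Rgs5, Kcnj8 and Abcc9, markers of mural cells of small vessels. Between mgR-LOS and mgR, Mfap4 ranged over the 10 subsets from 0.543 (0.490 to 0.603) with Rbp4/Wif1 to 0.989 (0.865 to 1.13) with Rgs5/Kcnj8/Abcc9. It was 0.608 (0.595 to 0.622) with Sost/Acan/Susd5 and 0.783 (0.751 to 0.816) without.

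Fibroblasts were split by Pi16 and Dpp4, genes of adventitial fibroblasts of the universal type, which 48.0% of WT, 34.6% of mgR and 31.0% of mgR-LOS fibroblasts carried. Several members differed between the sides of this split. In barcodes with Pi16/Dpp4, Mfap5 was 2904 CPM in WT, 4263 in mgR and 3731 in mgR-LOS, and in those without it was 637, 719 and 632. Emilin2 was 91.0, 277 and 251 CPM in barcodes with them and 3.56, 13.7 and 15.1 in those without, so the transcript came mostly from the Pi16/Dpp4 fibroblasts and stood higher in both mutant libraries on both sides. Fbn2, by contrast, was 1.42, 14.1 and 3.79 CPM with the markers (9, 143 and 31 UMIs) and 14.7, 11.8 and 8.12 without them.

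Fbn1 differed less from WT in the Pi16/Dpp4 fibroblasts than in the others. It was 1226 CPM in WT, 755 in mgR and 623 in mgR-LOS with the markers, and 472.5, 131 and 117 without them, which gives mgR to WT ratios of 0.616 (0.596 to 0.635) and 0.277 (0.263 to 0.291). Mfap4 went the other way, with a ratio of 0.401 (0.391 to 0.4115) in Pi16/Dpp4 barcodes and 0.672 (0.654 to 0.690) in the rest. Emilin1 was higher in the barcodes without the markers, at 145, 249 and 168 CPM, than in those with them, at 85.35, 105.6 and 80.6. When the fibroblasts of each library were weighted to the WT share of Pi16/Dpp4 barcodes, the mgR to WT ratio became 0.516 for Fbn1, 1.40 for Mfap5, 1.55 for Emilin1 and 3.07 for Emilin2. No call changed with this share fixed, and no other share was fixed.

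A second split, by Gdf10 and Hsd11b1, took in 18.4% of WT, 39.8% of mgR and 28.0% of mgR-LOS fibroblasts. Of the barcodes with Gdf10/Hsd11b1, 57.8% in WT also carried Pi16/Dpp4, against 16.6% in mgR and 18.5% in mgR-LOS. With both splits applied at once, Fbn1 was 1328 CPM in WT and 869 in mgR in barcodes with Pi16/Dpp4 alone, a ratio of 0.654 (0.633 to 0.676). Its ratio was 0.226 in barcodes with Gdf10/Hsd11b1 alone, 0.221 in those with both and 0.292 in those with neither, so the ratio closest to 1 was that of the barcodes with Pi16/Dpp4 alone. Emilin2 had a ratio of 3.29 (2.99 to 3.635) in barcodes with Pi16/Dpp4 alone and 1.07 (0.8175 to 1.41) in those with both, and Mfap5 1.52 (1.49 to 1.545) and 0.941 (0.895 to 0.989). Emilin1 passed 1.5-fold with Gdf10/Hsd11b1 alone (1.68, 1.46 to 1.94) and with both (1.70, 1.37 to 2.13). It stayed inside 1.5-fold with Pi16/Dpp4 alone (1.14, 1.01 to 1.29) and with neither (1.28, 1.185 to 1.39). The share of Gdf10/Hsd11b1 barcodes was not fixed, so whether the Emilin1 call of all fibroblasts depends on it was not tested. Split by Comp, Chad and Fmod, matrix genes of cartilage and tendon, Fbn1 had a ratio of 0.229 (0.213 to 0.246) with them and 0.460 (0.447 to 0.474) without. Between mgR-LOS and mgR, barcodes with Gdf10/Hsd11b1 alone had ratios of 1.70 (1.56 to 1.86) for Mfap2 and 0.628 (0.586 to 0.672) for Emilin1, both past 1.5-fold. With both sets of markers, Pi16/Dpp4 alone or neither, Mfap2 ranged from 1.21 to 1.38 and Emilin1 from 0.766 to 0.855.

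**Figure D3:**
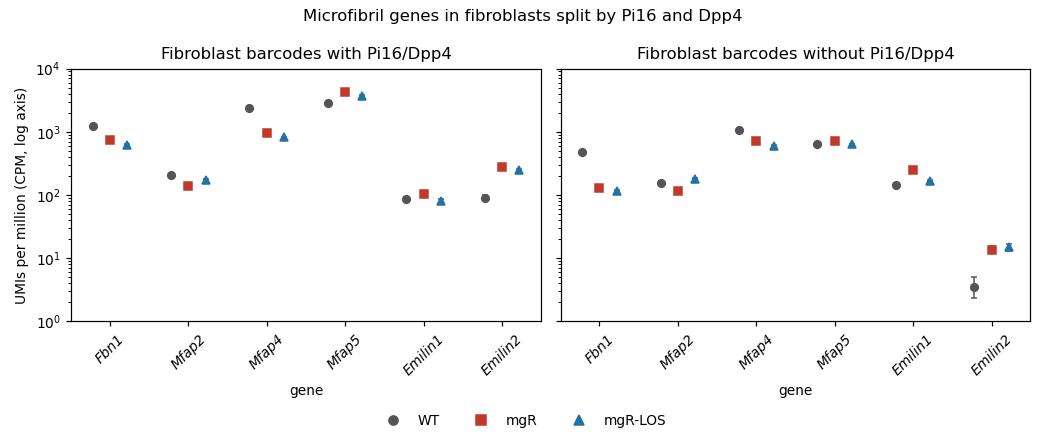
Levels (CPM, log axis) of 6 of the genes in fibroblast barcodes with and without Pi16/Dpp4 in each library, with 95% exact Poisson intervals as bars, many of them smaller than the points. Emilin2 and Mfap5 are far higher with the markers, and Fbn1 of the mutant libraries lies further below WT without them.

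EC held few UMIs of most members, and their values are less certain. Mfap5 was 300.5 CPM in WT (265 to 340), 204.5 in mgR (184 to 227) and 167.7 in mgR-LOS (145.5 to 192). The immune class held 14.3 to 22.8 CPM of it. Emilin1 was 64.6 CPM (48.6 to 84.0), 110.2 (94.97 to 127) and 98.65 (81.8 to 118.0). Its mgR to WT ratio was 2.68 (1.43 to 5.555) in EC with the lymphatic genes Prox1, Lyve1 or Flt4, from 11 UMIs in WT and 95 in mgR, and 1.32 (0.912 to 1.93) in the other EC, and the lymphatic share was 25.7% in WT and 36.3% in mgR. Mfap2 was 41.1 CPM (28.6 to 57.1), 48.6 (38.7 to 60.3) and 66.6 (52.9 to 82.8), with overlap between each library and the next. In the lymphatic EC barcodes, 28, 77 and 47 barcodes, Fbn1 was 189.6, 70.7 and 47.6 CPM, and in the other EC 57.7, 19.5 and 32.2. Mfap5 was 109, 53.0 and 58.2 CPM in the lymphatic barcodes and 363.5, 305 and 217 in the others. For Mfap2 the levels were 71.1, 88.35 and 113.8 CPM in the lymphatic barcodes, from 15, 60 and 43 UMIs. In the others they were 31.2, 22.4 and 45.3 CPM, from 20, 23 and 38 UMIs. The 8 genes of the fibroblast panel summed to 1721 CPM in WT EC, 705.5 in mgR and 2037 in mgR-LOS, against 187 to 384 in the immune class. Most of that sum was Dcn, at 1369, 415 and 1618 CPM, and 4 of the 8 genes were lower and 4 higher in mgR than in WT. In mgR-LOS 7 were higher and 1 lower than in mgR, and the same numbers held against WT. Dcn, Col1a2, Pdgfra and Lum of EC were above the immune class in each library, whereas Col1a1, Dpt, Clec3b and Serpinf1 were not. Pdgfra was 96.25, 14.65 and 41.9 CPM in EC, against 1.94, 1.48 and 3.49 in the immune class. Col1a1 was 65.7, 78.5 and 78.9 CPM in EC, against 32.1, 66.3 and 89.0. The part of fibroblast transcripts in the EC values of the members was not tested.

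The genes that work beside the microfibril were read from 7 lists of 39 genes in all, and their counts are given beside those of the members. In SMC, 27 of the 39 had 20 CPM, and 6 were higher and 2 lower in mgR than in WT, with a median ratio of 1.2. Over all genes 4.92% were higher and 3.59% lower, with a median of 0.991. Among the latent TGF-β binding proteins (4 of 4 measured), which dock on fibrillin, Ltbp2 was 2.10-fold higher (48.5 to 102 CPM) and Ltbp4 lower at 0.6255 (471 to 295 CPM). Among elastic fibre genes (8 of 11 measured) the fibulin Fbln2 went from 9.65 to 51.0 CPM (5.28-fold, 4.80 to 5.83) and the cross-linking enzyme Loxl2 was 1.92-fold higher, while Eln, elastin itself, stood at 1.23. Of matrix molecules that bind microfibrils (5 of 5), Fn1, fibronectin, was 3.84-fold higher (460 to 1765 CPM) and the proteoglycan Bgn 1.55-fold, and of integrin subunits (6 of 8), Itga5 was 1.53-fold higher and Itgb3 lower at 0.631. Loxl2, Bgn, Itga5, Eln, Furin and Fbln5 were named after their values were seen. None of 3 ADAMTS and ADAMTS-like genes passed, nor did Furin, which cleaves profibrillin, at 1.02, and the other EMILIN family genes were below 20 CPM.

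In fibroblasts, 6 of 30 listed genes were higher and 2 lower in mgR than in WT (median 1.06), beside 6.71% and 3.79% of all genes (median 1.00). Efemp1 (3.28-fold), Lox, which cross-links elastin (2.69-fold), and Fn1 (2.45-fold) were highest, and Ltbp1 (0.604) and Dcn (0.664), which is also a marker of the fibroblast gate, were lower. In EC, 6 of 27 were higher and 3 lower, beside 11.5% and 6.6% of all genes, with Mmrn1, an EMILIN family gene of lymphatic endothelium, at 2.39, Lox at 2.01 and Itgb5 at 1.997, and Dcn at 0.303, Efemp2 at 0.576 (0.329 to 1.01) and Ltbp1 at 0.589. The share of EC with lymphatic genes had intervals of 17.8 to 34.9% in WT and 29.8 to 43.2% in mgR.

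Between mgR-LOS and mgR, 7 of 27 listed genes were lower and 1 higher in SMC, where 3.45% of all genes were lower and 3.76% higher, with a median of 0.720 against 1.01 over all genes. The same mgR library serves in the comparison with WT, so the ratios of both comparisons are not independent. Fn1 had a ratio of 0.312 (1765 to 551 CPM), Ltbp2 0.450 and Lox 0.491, Eln, Fbln2, Fbln5 and Loxl2 were lower as well, and Dcn was 2.25-fold higher. Dcn of SMC was 102.7, 94.7 and 213 CPM in WT, mgR and mgR-LOS, and the immune class held 31.1, 40.5 and 95.4. It also belongs to the fibroblast panel, which limits entry to the SMC and EC classes. The part of free RNA in its SMC ratios was not tested. In fibroblasts 6 of 30 were lower and none higher (median 0.877), beside 3.42% and 2.91% of all genes, with Lox at 0.388, Eln at 0.4485 and Fn1 at 0.502. In EC 3 of 27 were higher (Dcn 3.90, Ltbp1 2.27, Efemp2 1.54, 0.9125 to 2.62) and 3 lower (Mmrn1 0.411, Itgb3 0.571, Lox 0.622), with a median of 0.886, beside 7.87% and 8.41% of all genes. Relative to WT, mgR-LOS SMC had 2 listed genes higher (Fbln2 3.09, Dcn 2.07) and 1 lower (Itgb3 0.557) of 26, beside 4.54% and 3.04% of all genes. Fibroblasts had 2 higher (Efemp1 3.34, Fbln2 1.85) and 4 lower of 30 (Adamtsl2 0.363, Ltbp2 0.454 and Eln 0.484 the lowest), beside 6.0% and 3.98% of all genes. EC had 4 higher (Itgb5 1.72, Adamtsl4 1.68 and Itga8 1.63 the highest, each with an interval that includes 1) and 1 lower of 27 (Itgav 0.665), beside 12.7% and 8.4% of all genes.

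**Figure D4:**
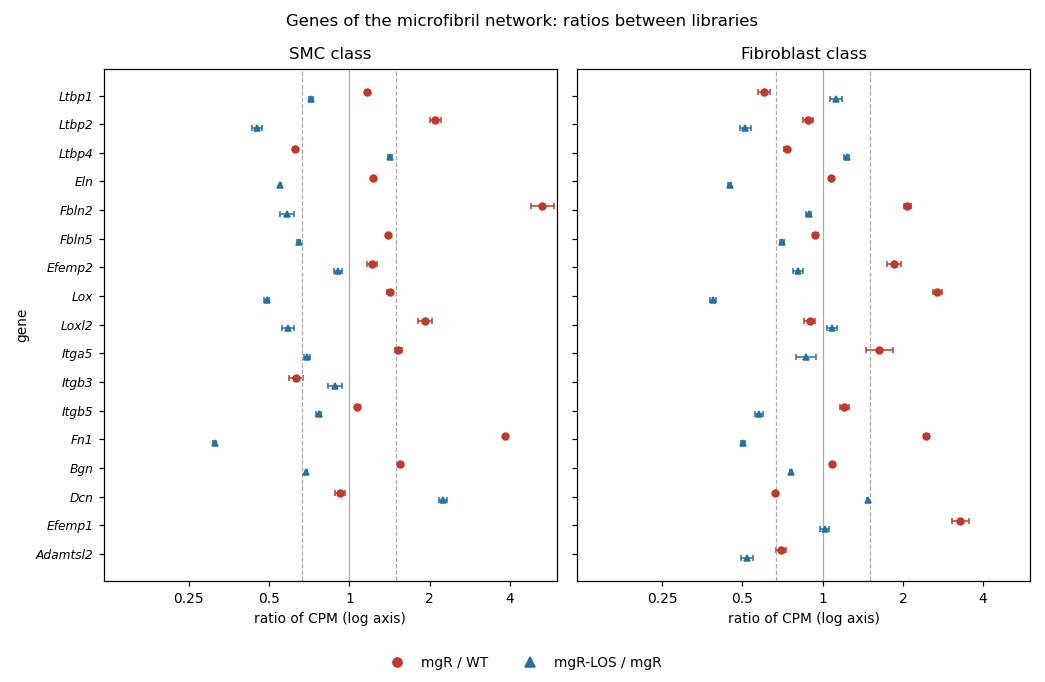
Ratios of CPM (log axis) of mgR to WT and of mgR-LOS to mgR for the 17 listed genes that passed 1.5-fold in any comparison in SMC or fibroblasts, shown where either library had 20 CPM, with 95% exact conditional intervals as bars and dashed lines at 1.5-fold. Fn1 and Lox lie above 1 in mgR over WT and below 1 in mgR-LOS over mgR in both classes. Both ratios use the same mgR library, so they are not independent and are only set side by side.

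Profiles over the 9 sums of class and library were compared by Pearson's r of log2(CPM + 1) among 8015 genes with 20 CPM in any sum. The sums share libraries and classes, and the values are a description. Mfap5 was most like Pcolce2, a procollagen C-proteinase enhancer (r = 0.975), Tmed3 and Tmem219, and Mfap4 most like Kdelr3 (r = 0.985), Echdc2 and Efs. Fbn1 was most like Dexi (0.958), Trp53i13 and Ampd2, all genes below 60 CPM. Emilin2 was most like Rab7b (0.996), Txndc11 and Angptl1, Mfap2 most like Angpt1 (0.994), Gnptg and Sh3kbp1, and Emilin1 most like Dcbld2 (0.963), Naglu and Plxna1. For Fbn2, which rests on few UMIs, they were Id3 (0.960), Socs5 and Ykt6. Among the members, Fbn1 and Mfap5 were the most alike (0.945), and Fbn2 and Mfap4 the least (-0.155).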

How the data were processed

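Single cells of the ascending aorta were measured in 3 libraries. The deposited matrices hold raw UMI counts of filtered barcodes, made with Cell Ranger 5.0.1 (WT and mgR) or 6.0.1 (mgR-LOS) per the file headers, whereas the submitters' processing notes list 6.0.1 for all, on mm10. In WT, mgR and mgR-LOS, 7858, 10657 and 14663 barcodes carried 83338726, 123956320 and 121436873 UMIs, and 5361, 8076 and 12721 passed a filter of 600 to 5000 detected genes and no more than 10% mitochondrial transcripts. A barcode entered a class when its marker panel reached 150 (SMC), 100 (fibroblast), 20 (EC) or 50 (immune) UMIs per 10000 and the other panels stayed below their limits (100, 100, 10 and 10, 10 each for Schwann and mesothelial panels, 20 for red cells, and 150 for the fibroblast panel in SMC). These limits were set after panel levels had been seen. Barcodes passing no gate (174, 1086 and 897, or 3.25%, 13.45% and 7.05% of filtered barcodes) were left out, and none passed more than 1. No doublet caller was run, so doublets may remain, also of SMC with fibroblasts, since SMC could carry a fibroblast panel of up to 150. Pairs of libraries shared 22 (WT and mgR), 29 (WT and mgR-LOS) and 46 (mgR and mgR-LOS) barcode sequences. Ccl21a, with more than 1 row, was left out of the lymphatic genes.

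Counts were summed per class and library and divided by the class total. Intervals are 95% exact Poisson for levels, exact conditional binomial for ratios and exact binomial for shares, and approximate normal on the log scale for ratios of ratios. A call needed 20 CPM in either library and a ratio of 1.5-fold. The rule for calls was also run on counts simulated from the WT profile of each class at the mgR depth, with known changes. These counts hold counting error only, so they cannot show how far the calls vary between mice, pools or libraries. Members and lists were chosen with earlier results of these data known. The named genes were the 7 members, the 3 genes most like each, and, from the lists, up to 3 with the largest and 3 with the smallest ratios past 1.5-fold in each comparison and class, beside 6 named after their values were seen (Loxl2, Bgn, Itga5, Eln, Fbln5 and Furin). Positions come from GENCODE M21 and upstream sequences from RefSeq. Python 3.11.15, numpy 2.4.6, scipy 1.17.1, pandas 2.3.3 and matplotlib 3.10.9 were used.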

Additional observations from a re-analysis of the deposited data

Results flagged for a closer look

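Each pair of values here was looked at again because the ratio lay past 1.5-fold in opposite directions in barcodes with and without a set of marker genes. The difference between the sides was not tested. Pairs on opposite sides of 1 by less are not listed, such as Mfap2 of SMC in mgR over WT, at 1.06 with Rbp4/Wif1 and 0.849 without. Mfap5 in fibroblasts had a mgR to WT ratio of 0.598 in barcodes with Gdf10/Hsd11b1 and 1.60 in those without. Emilin2 had 0.541 and 3.81 on the same sides. When the barcodes were split by Pi16/Dpp4 as well, Emilin2 had 1.07 with both (0.8175 to 1.41) and 1.73 with Gdf10/Hsd11b1 alone (0.883 to 3.85, 9 UMIs in WT). Both of these intervals include 1. It had 3.29 with Pi16/Dpp4 alone (2.99 to 3.635) and 4.66 with neither (2.89 to 7.90, 20 UMIs in WT). Mfap5 stood at 0.941, 1.04, 1.52 and 1.19 in the same order. Of the WT barcodes with Gdf10/Hsd11b1, 57.8% carried Pi16/Dpp4, against 16.6% in mgR.

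Mfap2 in EC had a mgR to WT ratio of 0.184 in barcodes with the capillary genes Cd36, Gpihbp1 and Rgcc, from 4 against 10 UMIs, and 1.61 in those without. Between mgR-LOS and WT the same gene had 0.613 with these genes, from 9 against 10 UMIs, and 2.03 without, from 72 against 25. With these genes its level was 56.55 CPM in WT (27.1 to 104.0) and 34.7 in mgR-LOS (15.9 to 65.8), and these intervals overlap.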

How the results depend on the processing

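No paired analysis was possible because each group was 1 library. Every ratio that was called stayed on its side of 1 under the alternatives run. Some ratios without a call crossed 1, such as Mfap2 of EC in mgR-LOS over mgR (1.37, and 0.740 after thinning to 2000 UMIs). Over 44 ratios of members and 12 alternatives, 386 of 528 values stayed within the counting interval of the reported one. The other 142 moved outside it. By construction, the fixed Pi16/Dpp4 share leaves SMC and EC ratios as they were. Emilin2 was exempted from the subtraction of the immune-class level, so its ratios could not move under that alternative. The counts of 6 lower pairs in mgR over WT and 7 in mgR-LOS over WT stayed within 1.5 times under each alternative. The 3 higher pairs of mgR over WT became 5 with no minimum CPM and 1 at a fold of 2. The 3 higher pairs of mgR-LOS over WT became 1 with at most 4000 genes, with the mean over barcodes or at a fold of 2, and 6 with no minimum CPM. The 0 higher pairs of mgR-LOS over mgR became 1 after thinning to 2000 UMIs and 3 with no minimum CPM or at the smaller fold limit tried. The 0 lower pairs became 2 with the highest scaled panel, a mitochondrial limit of 5% or that smaller fold, and 1 with no maximum of genes, the mean over barcodes, thinning, subtraction of the immune-class level, centring on the median gene or no minimum CPM. The cause of these differences was not tested. Mfap4 of SMC in mgR-LOS over mgR ranged from 0.603 to 0.781 and passed the limit under 5 alternatives, Emilin1 of EC in mgR-LOS over WT lost its call under 6, and Mfap2 of EC in that comparison under 3. In mgR over WT of EC, Emilin1 lost its call with the mean over barcodes (1.49), and Mfap5 gained one under 5 and Mfap2 under 3. Mfap5 of fibroblasts in mgR over WT ranged from 0.954 with at most 4000 genes to 1.40 at the WT share of Pi16/Dpp4 barcodes. Subtraction of the immune-class level and the fixed Pi16/Dpp4 share were alternatives chosen after seeing the data. For Emilin1 the level subtracted was not shown to be free RNA. The EC values rest on few UMIs, and with 1 library a group no difference has a replicate check.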

Other observations

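Emilin2 was also carried by the immune class, which the comparisons between SMC, fibroblasts and EC do not use. Its level there was 60.25 CPM in WT (46.2 to 77.2, 62 UMIs), 128 in mgR (122 to 135, 1474 UMIs) and 77.5 in mgR-LOS (69.9 to 85.8, 378 UMIs). The immune class held 9.04% of all Emilin2 UMIs in WT, 30.6% in mgR and 12.6% in mgR-LOS, and it made up 2.145%, 17.1% and 5.51% of the filtered barcodes. Over all filtered barcodes Emilin2 was 9.80, 48.2 and 27.1 CPM in WT, mgR and mgR-LOS.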
